A study of Homo sapiens with 1 sample.

Results

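The genes on the short arms of the acrocentric chromosomes 13, 14, 15, 21 and 22 were examined in 1 PAR-CLIP library. They were chosen by position alone, as genes of T2T-CHM13 v1.1 with more than 350 bases of exons that end before a fixed limit near the centromere of each of these chromosomes. Of the 63494 genes listed, 1046 met this rule. PAR-CLIP links RNA to bound protein by long-wave UV light after cells have taken up a thiolated nucleoside. The library was the negative control of the study, from HEK293T cells, a human embryonic kidney line, that stably expressed the SFB tag (a fusion of S-protein, FLAG and streptavidin affinity tags) with no protein fused to it. The cells received 0.1 mM 6SG overnight and 0.4 J per cm2 of light at 365 nm, and RNA was recovered on streptavidin and then FLAG resin. Whether the line was 1 clone is not given in the sources used here, the libraries of tagged BARD1 and of the BRCA1 BRCT domain were not analysed here, and no comparison between conditions was made.

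Human cells keep their main ribosomal RNA genes in tandem arrays on these short arms, and the nucleolus forms around them. RNA polymerase I transcribes each repeat into a 45S precursor, from which 18S, 5.8S and 28S rRNA are cut while the external and internal transcribed spacers are removed. The short arms also carry satellites and long stretches that are nearly identical between the chromosomes. The reads came from HEK293T cells, whereas the reference genome came from another cell line, CHM13, and in its assembly the interior of the arrays is represented by repeated model copies.

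The library held 33677888 read pairs, of which 3510688 (10.4%) aligned to several places and entered no gene count. STAR left another 16485622 pairs unaligned, and these also entered no gene count. A gene read below is a read that featureCounts assigned to the exons of exactly 1 gene, and 8104708 reads were so assigned. The gene pairs of STAR are uniquely aligned read pairs, given without strand and also split by whether read 1 ran with the gene (same strand) or against it (opposite strand). There was no replicate, so no value carries a replicate error. The 95% Wilson intervals cover counting error only, and because both reads of a pair are counted they are too narrow. A gene with at least 3 reads was called detected, and a count of 0 allows up to 3 reads, 3.7e-05% of gene reads. None of the identifiers of the 1046 genes matched a table of gene names (0 matched), so genes are given by position.

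The short arms gave few gene reads, and these lay on few genes. The 1046 short-arm genes held 11823 reads, 5.76% (95% interval 5.66% to 5.86%) of the reads on genes over 350 bases of these 5 chromosomes, while they made up 19.7% of the exon bases. That share was 1.48% without the genes of the rDNA repeats described below and 0.139% over genes with several exon intervals. They held 0.189% (0.186% to 0.193%) of the 6250026 reads on nuclear genes. Of the 1046, 45 (4.30%) were detected, against 38.3% of the 6257 genes over 350 bases on the long arms and 40.2% of all such nuclear genes. A gene whose exon bases all lie in other genes as well could take no read in this counting, and 439 of the 1046 were of this kind, against 158 on the long arms. Among genes with bases of their own, 45 of 607 (7.41%) were detected on the short arms and 39.3% of 6099 on the long arms. Of all 1046 short-arm genes, including those that could take no read, 991 had no read and 10 had 1 or 2 reads. Per kilobase of exon, the short arms held 2.41 reads and the long arms 9.66 reads, a ratio of 0.249 (0.245 to 0.254). Over the bases that lie in exactly 1 gene, of which the short arms had 9.04%, the values were 6.54 and 10.6 reads per kilobase, a ratio of 0.615 (0.603 to 0.626). Over all exon bases the ratio was 0.654 without the repeats and 0.0897 over genes with several exon intervals. Of the 2903 reads left without the repeats, 2212 lay on 1 gene of chromosome 21. The 10 genes with the highest counts held 89.3% (88.7% to 89.8%) of the short-arm reads, and 9 of these 10 were long single-exon genes of the rDNA arrays.

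**Figure D1:**
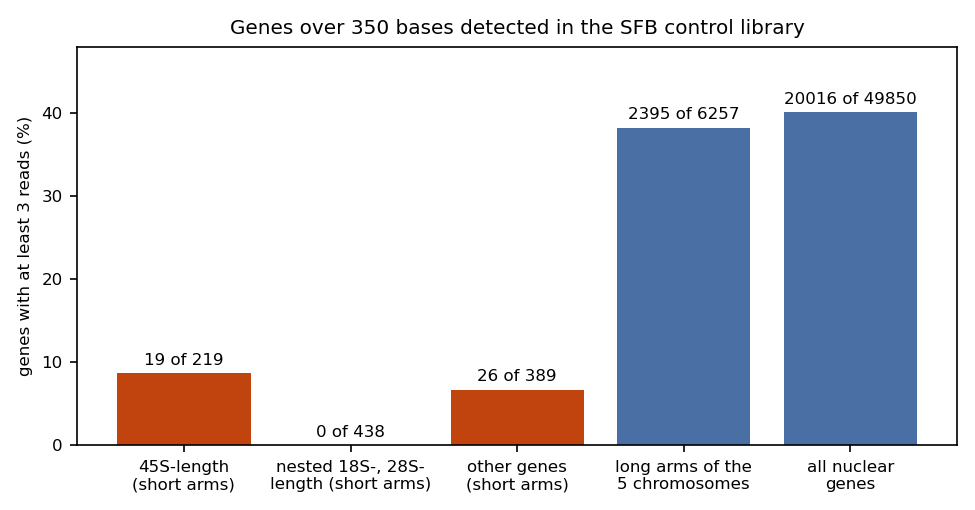
Share of genes with at least 3 reads (vertical axis, %) in 3 classes of short-arm genes (red) and in 2 reference classes (blue), with the number detected and the number listed over each bar. The 45S-length and other short-arm genes lie below 10%, whereas the long arms of the same chromosomes reach 38.3%, and the nested genes could take no read in this counting.

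The arrays could be read from the gene table itself. On the 5 arms, 219 single-exon genes of 13318 to 13381 bases lay on the plus strand in tandem, with starts 42524 to 49249 bases apart. Each of the 219 contained exactly 3 smaller genes on the same strand. The first of these had 1869 to 1872 bases, the second 157 bases and the third 5039 to 5088 bases. The RefSeq genes named for 45S, 18S, 5.8S and 28S rRNA (GRCh38.p14, 5 of each) have 13309 to 13373, 1869, 156 to 157 and 5054 to 5077 bases. The genes are therefore called 45S-length, 18S-length and 28S-length genes here, since the files carry no names for them. The 5.8S-length genes fell under the length limit and are not among the 1046. The 219 45S-length, 219 18S-length and 219 28S-length genes together made up 657 of the 1046 short-arm genes, 62.8%.

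The number of copies differed between the arms. Chromosome 13 had 76 copies, the first starting at 5774303 and the last ending at 9309130. Chromosome 21 had 56 copies between 3112036 and 5573111, and chromosome 15 had 50 copies between 2510166 and 4668554. Chromosome 22 had 21 copies between 4797630 and 5682337, and chromosome 14 had 16 copies between 2103528 and 2780864. Copies of the same length filled most of each array: 73 of the 76 copies on chromosome 13 had 13381 bases, and 14 of the 16 on chromosome 14 had 13355 bases. On chromosome 22, 17 of the 21 copies had 13364 bases, on chromosome 21, 37 of the 56 had 13348 bases, and on chromosome 15 the most common length, 13331 bases, was found in 16 of the 50.

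The 45S-length genes held 8920 reads, 75.4% (74.7% to 76.2%) of the short-arm reads. In STAR pairs their part was smaller, with 3035 of the 4515 pairs on short-arm genes. Of the 219 copies, 19 (8.68%) were detected and 198 had 0 reads. The reads lay at the ends of the arrays. On chromosome 13, the last 3 copies held 144, 546 and 561 reads in order of position, and the other 73 copies held 0. On chromosome 14, the first copy held 853 reads, the next copies 12 and 45 and the last 1006, and those between held 0. On chromosome 15, the first copy held 45 reads, the last but one 12 and the last 821, with 0 in all others. On chromosome 21, the first copy held 2870 reads, the second 5, the last but one 6 and the last 250, and among the rest a single copy held 1 read. On chromosome 22, the last 6 copies held 2, 29, 137, 141, 820 and 614 reads, and the first 15 copies held 0. The 10 copies that were first or last in their array thus held 7020 of the 8920 reads, 78.7%, although the first copies of chromosomes 13 and 22 had none. No detected copy lay more than 5 copies from an end.

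**Figure D2:**
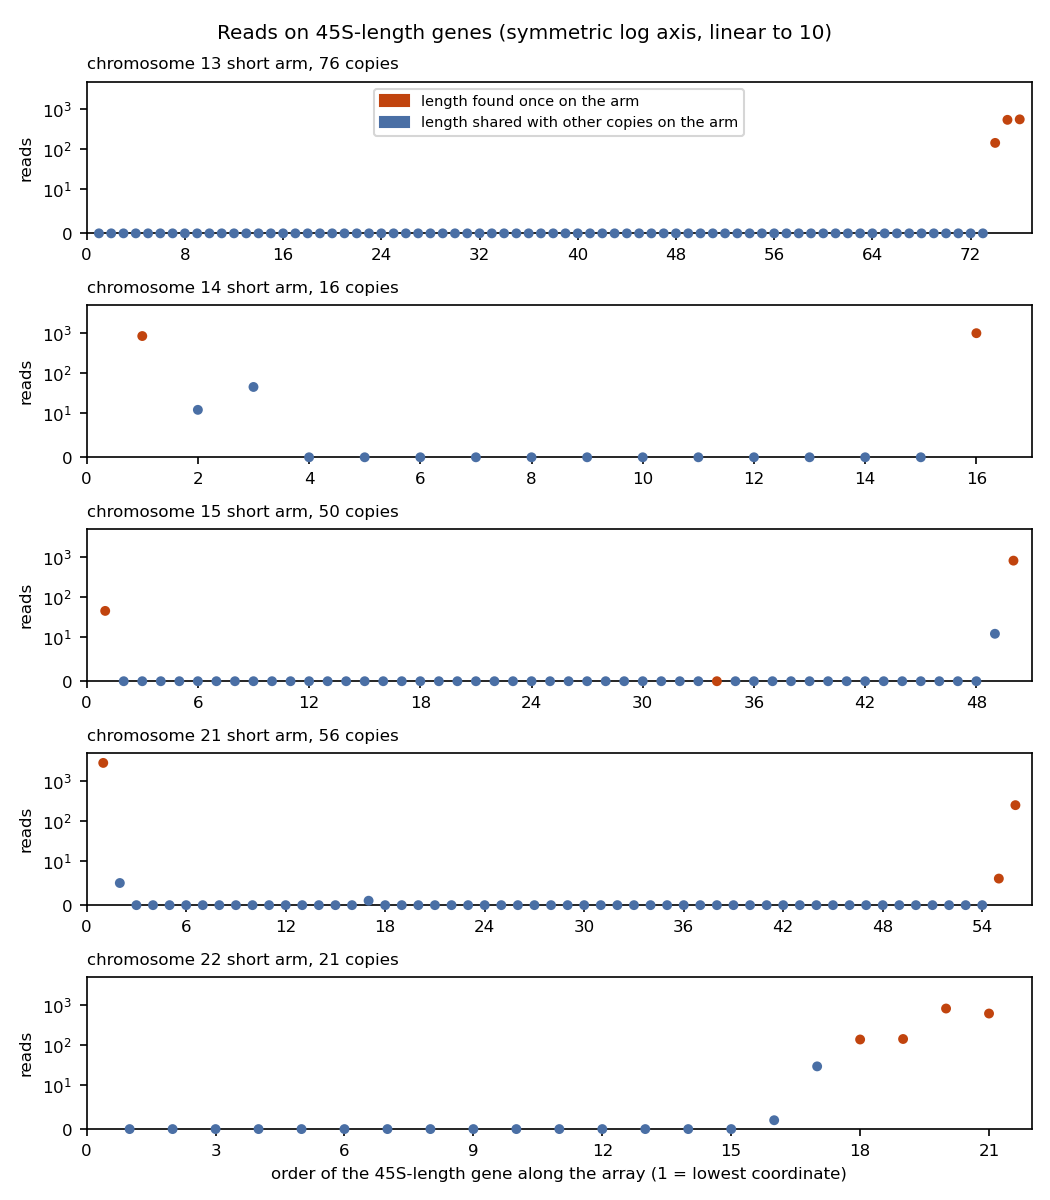
Reads on each 45S-length gene (vertical axis, symmetric log scale, linear up to 10) against its order along the array, with 1 panel for each short arm and 1 point for each of the 219 copies. Red points are copies whose length occurs once on the arm, and apart from 1 copy on chromosome 15 they all carry reads, whereas 197 of the 204 blue copies, which share their length with others on the arm, lie at 0.

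Reads also went with whether the length of a copy was found once on its arm. In total, 15 copies had a length found once on their arm, and 14 of these were detected with a median over all 15 of 546 reads and a highest count of 2870. They held 8814 reads, 98.8% of the reads on 45S-length genes. The exception was a copy inside the array of chromosome 15 with 0 reads, and its 13343 bases recurred in copies on chromosome 21. Among the 14 detected, 13354 bases recurred on chromosomes 13 and 15, and the 13348 bases of a chromosome 22 copy recurred on chromosome 21. The other 204 copies shared their length with at least 1 copy on the same arm. Of these, 5 (2.45%) were detected, the highest with 45 reads, and they held 106 reads together. Both tables count unique alignments only, so a read that matches several copies equally is in neither, and a count of 0 for a copy does not show that it gave no RNA. Copies with a length found once on their arm and copies near an end were largely the same copies. The part of either in the counts was not tested.

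The genes inside the repeats had no counts. All 219 18S-length and 219 28S-length genes held 0 reads and 0 pairs. Their exons lie wholly within a 45S-length gene, and the counting assigns no read that touches the exons of more than 1 gene, so these zeros are a property of the tables and put no limit on mature rRNA in the library. The same counting left 6240 to 6272 bases of each 45S-length gene that belong to it alone, which are the transcribed spacers and make up a median of 46.8% of its exon bases. Over these bases all 219 copies held 6.51 reads per kilobase, and the 19 detected copies, which were selected for having reads, held 75.1. Reads that STAR left unaligned were aligned to a separate rDNA unit and counted in bins that the methods call normalized, and these bins were not set against the gene reads.

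The 45S-length genes also stood apart in the ratio of reads to pairs. For 14470 nuclear genes with at least 10 reads, featureCounts gave 2.00 reads per STAR pair, and the ratio was exactly 2 in 81.4% of them. For the 17 45S-length genes with at least 10 reads it was 2.94, over 2 in 15 genes and exactly 2 in 1. The highest copy, LOFF_G0010568 on chromosome 21 (3112036 to 3125409, plus strand), had 2870 reads but 666 pairs, a ratio of 4.31. On chromosome 14 copies 2 and 3 had 12 and 45 reads and no pair. In sum, the 219 copies had 3035 pairs and 2850 reads beyond those of these pairs. STAR counted pairs and featureCounts single reads, and the source of the surplus was not tested.

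Pairs on the 45S-length genes had nearly all the same orientation. Read 1 ran against the gene in 3003 of 3035 pairs, 98.9% (98.5% to 99.3%). The paper names a stranded library kit, and which strand of the RNA read 1 follows was not tested. The orientation of read 1 is therefore not read as the strand of the RNA. All 12 copies with at least 30 stranded pairs had under 10% in the same-strand column, from 0% to 2.78%, against 51.2% of all nuclear genes over 350 bases with as many pairs that were under 10%. The median same-strand share of these nuclear genes was 9.43% and that of the 12 copies 0.899%. Over all short-arm genes the same-strand share was 6.07% (5.45% to 6.76%), and it was 43.2% (42.9% to 43.5%) on the long arms. The long-arm value rested in part on 1 gene of chromosome 21 (42489225 to 42564212), without which it was 31.3%. Pooled over all nuclear genes above 350 bases, the share was 18.1%, also below the long-arm value. Of 560 long-arm genes that reached 30 stranded pairs, 45.2% were under 10% and 10.9% were over 90%. Their median share was 12.3%, so the pooled 43.2% does not describe a typical long-arm gene.

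**Figure D3:**
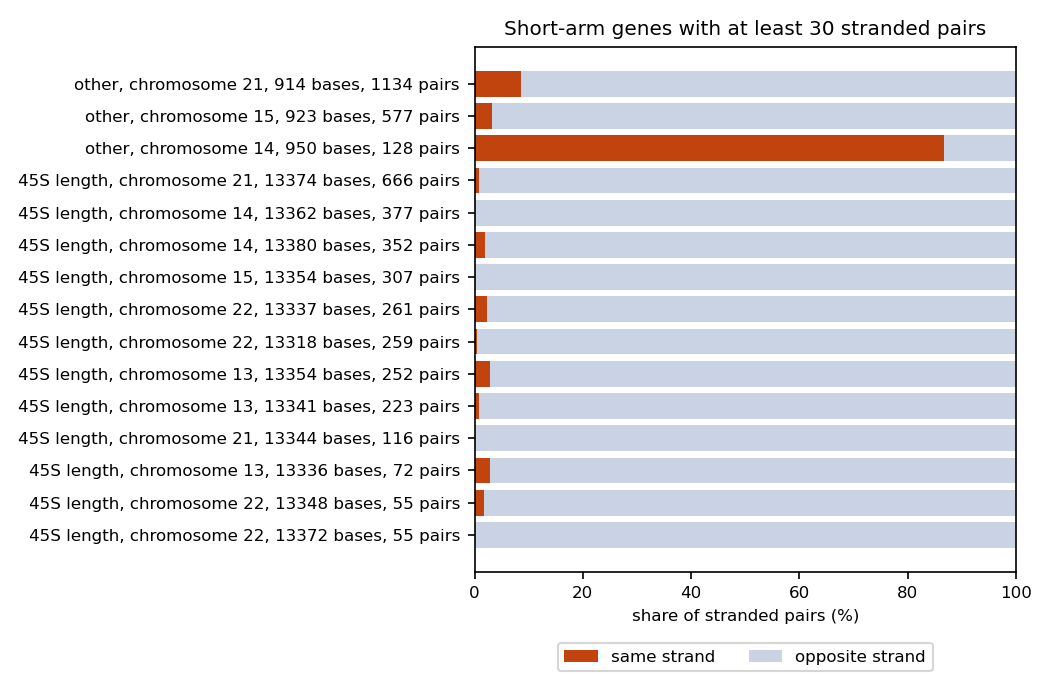
Share of stranded STAR pairs with read 1 running with the gene (red) or against it (grey), as % of pairs on the horizontal axis, for each of the 15 short-arm genes with at least 30 stranded pairs. The 12 45S-length genes reach at most 2.78% in red, and the only gene above 10% is that of 950 bases on chromosome 14 with 86.7%.

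Outside the repeats, 389 short-arm genes remained, with 2903 reads. Of these, 26 (6.68%) were detected, 8 had 1 or 2 reads and 355 had none. Most of their reads lay on single-exon genes of the minus strand with 900 to 960 bases, a group defined after the counts were seen. There were 6 such genes, and 5 of them, 1 on each arm, held 2585 of the 2903 reads, 89.0%. The highest, LOFF_G0001713 on chromosome 21 (8794151 to 8795064, 914 bases), held 2212 reads, 18.7% (18.02% to 19.42%) of all short-arm reads. Per kilobase of exon it reached 2420 reads, the highest value of the 1046 genes among those with at least 30 reads, followed by 260 for the gene of 950 bases on chromosome 14 (2816001 to 2816950, 247 reads) and 215 for the first 45S-length copy of chromosome 21. The gene of 923 bases on chromosome 15 (4705603 to 4706525) held 65 reads, that on chromosome 22 (5718751 to 5719673, 923 bases) held 43 and that on chromosome 13 (9346159 to 9347081, 923 bases) held 18. The sixth, on chromosome 15 (14643788 to 14644746, 959 bases), held 0. Of 488 single-exon nuclear genes of 914 to 959 bases outside these short arms, on either strand, 70 (14.3%) were detected.

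On 4 arms the gene of this group with reads followed the rDNA array closely. It started 37.0 kb past the last 45S-length gene on chromosomes 13 and 15, 36.4 kb past it on chromosome 22 and 35.1 kb past it on chromosome 14. On chromosome 21 it lay 3221 kb past the array. These genes did not share an orientation. The gene on chromosome 14 had 111 of 128 stranded pairs on the same strand, 86.7% (79.8% to 91.5%), whereas that on chromosome 21 had 98 of 1134, 8.64% (7.14% to 10.4%). On chromosome 22 the pairs were divided, with 12 of 25 on the same strand, and on chromosome 13 all 9 were on the opposite strand. On chromosome 15 the strand columns held 19 and 558 pairs, whereas the column without strand held 28. It was the only short-arm gene whose strand columns exceeded its unstranded count by more than 10 times, no other listed gene overlapped it, and the source of the difference was not tested. Its 577 stranded pairs are part of the 5071 on the short arms, and without it the same-strand share of the short arms was 6.43% in place of 6.07%.

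**Figure D4:**
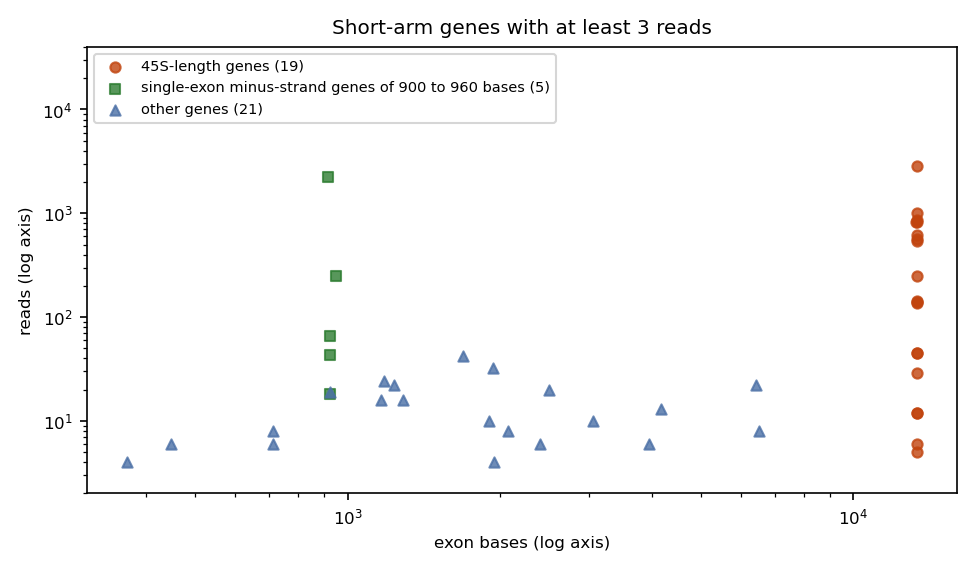
Reads (vertical axis, log scale) against exon bases (horizontal axis, log scale) for the 45 short-arm genes with at least 3 reads, with 45S-length genes as circles, the single-exon minus-strand genes of 900 to 960 bases as squares and the rest as triangles. The 21 triangles stay at or below 42 reads, whereas circles and squares reach 2870 and 2212 reads.

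The remaining 383 genes held 318 reads together, and no gene of these had more than 42. The 21 detected were spread over the 5 arms. The highest was a gene on the minus strand of chromosome 21 (7557392 to 7581109, 1693 bases in 9 exon intervals) with 42 reads, and a gene on the plus strand of the same arm (9735643 to 9742404, 1942 bases) held 32. Next was a single-exon gene of chromosome 13 (13611838 to 13613017) with 24 reads. Another 2 genes had 22 reads each, on chromosome 22 (9222408 to 9254992) and on chromosome 21 (6991263 to 6995729). All pairs of 14 of the 21 genes were on the opposite strand, and all pairs of 6 were on the same strand. The highest of the latter was on chromosome 22 (6244131 to 6292336) with 8 pairs, and no gene of the 21 had more than 21 pairs. Among all nuclear genes over 350 bases with at least 30 stranded pairs, 51.2% had under 10% on the same strand. Nuclear genes with as few pairs as these 21 were not compared.

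Many of these genes had a counterpart on another arm. Of the 389 genes outside the repeats, 272 had the same number of exon bases and exon intervals as a gene on at least 1 other short arm. Of these, 9 (3.31%) were detected, against 17 of the 117 (14.5%) whose structure was found on 1 arm. The match was exact in both numbers, so the 117 may include genes whose counterpart differs by a few bases. The median exon length was 761.5 bases in the 272 and 1206 in the 117, and the part of length was not tested. As with the repeats, reads that fit several copies are in neither table, and whether the paired genes are near-identical in sequence was not examined here. The genes also differed by the prefix of their identifier, whose meaning is not given in the sources used here. The prefix LOFF was carried by 980 of the 1046 short-arm genes (93.7%) and by 185 of the 6257 long-arm genes (2.96%). On the long arms, 5 of the 185 LOFF genes were detected (2.703%), against 2390 of 6072 with the prefix CHM13 (39.4%). On the short arms outside the repeats, 18 of 323 LOFF genes (5.57%) and 8 of 66 CHM13 genes (12.1%) were detected. Prefix, copy number and arm go together here, and their parts were not tested.

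Exon structure and length differed between the arms as well. Outside the repeats, the median exon length was 774 bases, against 1673 on the long arms. Of the short-arm genes outside the repeats with several exon intervals, 15 of 191 were detected (7.85%), and of those with 1 interval 11 of 198 (5.56%). On the long arms these shares were 44.9% of 4747 and 17.4% of 1510. The share detected was thus lower on the short arms in both classes of structure. Reads per kilobase of exon did not follow it. Genes with several exon intervals held 0.928 reads per kilobase on the short arms outside the repeats and 10.3 on the long arms, but single-exon genes held 14.7 on the short arms and 3.65 on the long arms. Without LOFF_G0001713, the short-arm value for single-exon genes was 2.41. That removal was made on the short arms only, while the long arms kept their highest single-exon gene, with 1558 of 7407 reads.

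The arms differed in reads and in how they stood to their long arms. The short arm of chromosome 21 held 5450 reads, 46.1% (45.2% to 47.0%) of all short-arm reads, and that of chromosome 14 held 2178 (18.4%). Chromosome 22 held 1858 reads (15.7%), chromosome 13 held 1376 (11.6%) and chromosome 15 held 961 (8.13%). The 45S-length genes held 57.5% of the reads of the short arm of chromosome 21 and from 88.0% to 93.8% on the other 4 arms. Per kilobase of exon, every short arm was below its long arm, but this order depended on the bases that could give no gene read. Over bases in exactly 1 gene, the short arm of chromosome 13 held 2.43 reads per kilobase against 6.58 on its long arm, and that of chromosome 15 held 2.65 against 7.58. These were the arms with the lowest values. On chromosome 14 the values were 10.6 and 11.01, a ratio of 0.965 (0.925 to 1.01) whose interval includes 1. On chromosome 22 the short arm was higher in these reads, with 8.18 against 7.57, a ratio of 1.08 (1.03 to 1.13). Over all exon bases it was lower, with 3.54 against 6.72. On chromosome 21 the values were 12.2 and 32.7, and the long-arm value was 11.6 without its highest gene. That removal was made on the long arm only, while the short arm kept its 2 highest genes, with 2870 and 2212 reads. The order of these arms without the highest gene of each was not computed. Nor were single-arm ratios in STAR pairs, although the 219 45S-length genes had 2.94 reads per pair. The short arm of chromosome 22 had 1858 reads and 689 pairs, and its long arm 24115 reads and 12127 pairs. On chromosome 14 the short arm had 2178 reads and 865 pairs, and the long arm 51682 reads and 25916 pairs. With all genes kept, a lower level on the short arm held over both lengths for chromosomes 13, 15 and 21. Between 3.11% and 8.22% of the short-arm genes were detected per chromosome, and between 35.8% and 40.6% of the long-arm genes.

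**Figure D5:**
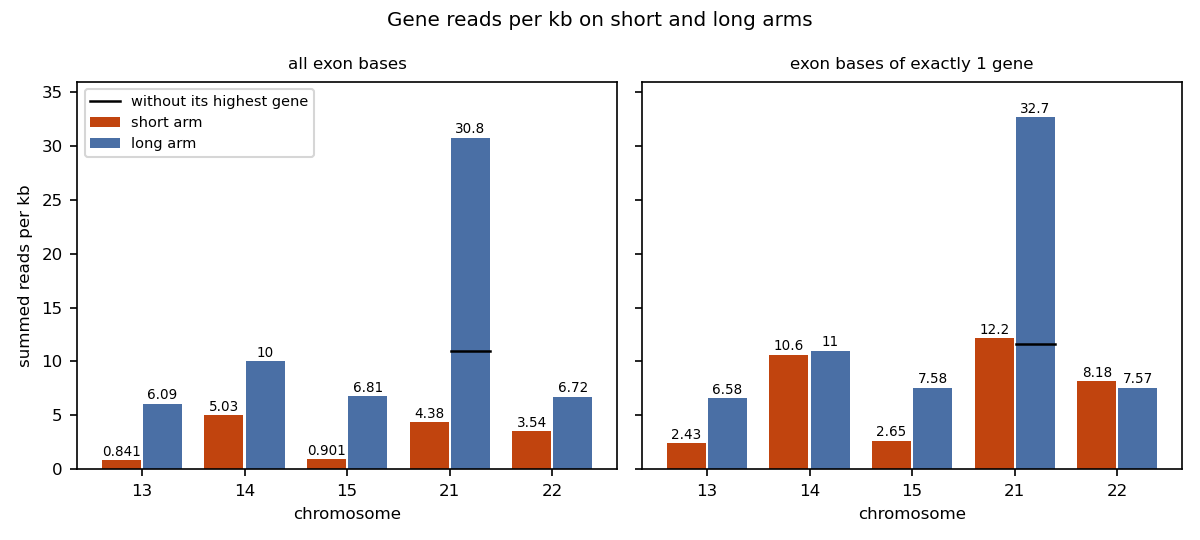
Summed gene reads per kilobase (vertical axis) on the short arm (red) and the long arm (blue) of each acrocentric chromosome (horizontal axis), over all exon bases (left) and over bases in exactly 1 gene (right), with the value over each bar and a black line for the long arm of chromosome 21 without its highest gene. On the left each red bar is lower than its blue bar, whereas on the right that of chromosome 22 is higher, 8.18 against 7.57, and those of chromosome 14 are 10.6 and 11.01.

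At the limits of the rule, counts were low on both sides. The last short-arm gene ended at 13921828 on chromosome 13, at 9888626 on chromosome 14, at 16571012 on chromosome 15, at 10799139 on chromosome 21 and at 12586076 on chromosome 22. The first genes past the limits ended at 17647558, 10027627, 16607256, 11411385 and 12725391. Among these 10 genes, only that ending at 16571012 had reads, and it had 2. Both genes of 353 bases, the shortest included, and all 3 of 348 bases, the longest left out, had 0 reads.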

How the data were processed

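PAR-CLIP reads of 1 control library were cleaned by the authors and aligned to T2T-CHM13 v1.1 with STAR, whose version is 2.7.6a in the processing notes and differs in the methods. The authors deposited counts of uniquely aligned pairs per gene, raw and by strand, and counts of reads per gene from featureCounts 2.0.2, whose header shows no option for strand, for multiply aligned reads or for reads on several genes. Reads unaligned by STAR were counted by the authors in 10 base bins of the rDNA unit after BLASTN, as values that the methods call normalized though they are whole numbers, and these were not used in any comparison. No column of another sample was found in these 3 tables.

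Reads were summed over genes by arm, and shares were given with 95% Wilson intervals. Genes were detected with at least 3 reads, and strand shares of single genes used at least 30 stranded pairs. Repeat genes were found as single-exon genes of 45S length, with all genes inside them, a class defined after the counts were seen. Reads per kilobase were taken over all exon bases and over bases in the exons of exactly 1 gene, on either strand. The text names the 10 short-arm genes with the highest counts, the 2 highest of each arm, the 3 highest per kilobase with at least 30 reads, and those at the limits of the rule, while others named were chosen after their values were seen. The members and lists were chosen with earlier results of these data known. The code ran in Python 3.11.15 with SciPy 1.17.1, pandas 2.3.3 and numpy 2.4.6, figures were drawn with matplotlib 3.10.9, and the functions were tested on simulated data. The alternatives were STAR pairs, other minimums of reads, pairs and length, genes with several exon intervals, ranking per kilobase, and bases or genes that could take a read, and the removal of the highest gene, the repeats or 1 gene with unequal strand columns.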

Additional observations from a re-analysis of the deposited data

Results flagged for a closer look

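Genes of 350 bases or less on the short arms were outside the comparisons. In these 508 genes there were 195 reads, and 7 genes had at least 3 reads. Of the reads, 142 lay on a gene of 151 bases on chromosome 14 (9677675 to 9677825), which is above the 3 reads that a count of 0 allows.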

How the results depend on the processing

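No paired analysis was possible because only 1 library was analysed. Of 75 alternative values, 15 stayed within the counting interval of the reported value, 59 moved outside it and 1 turned its direction, and the cause was not tested except where the setting itself removes genes. In the settings run for them, the 5 short arms pooled stayed below the long arms in reads per kilobase and in the share of genes detected.

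The short-arm share of reads (5.76%) was 4.45% with STAR pairs, 5.37% without the highest gene of each arm class, 4.61% over 1000 bases, 5.08% with no minimum length and 0.139% with 2 or more exon intervals. The ratio per kilobase (0.249) was 0.190, 0.232, 0.189, 0.218 and 0.0897 in the same order. The detected share of short-arm genes (4.30%) was 7.85% with 2 or more exon intervals. That of long-arm genes (38.3%) was 33.6% with STAR pairs, 55.4% over 1000 bases, 31.1% with no minimum length, 44.9% with 2 or more exon intervals, 27.1% with at least 10 reads and 45.8% with at least 1 read. The same-strand share of short-arm pairs (6.07%) was 6.86% without the highest gene, 1.67% over 1000 bases, 20.5% with 2 or more exon intervals and 5.38% in genes with at least 30 stranded pairs. On the long arms (43.2%) it was 31.3% without the highest gene, 40.7% with no minimum length, 42.5% with 2 or more exon intervals and 44.6% in genes with at least 30 stranded pairs.

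The share on the 10 highest genes (89.3%) was 87.7% with STAR pairs, 92.4% over 1000 bases, 87.8% with no minimum length and 80.8% when ranked per kilobase. The share of chromosome 13 (11.6%) was 13.6% with STAR pairs, 15.4% without the highest gene and 14.5% over 1000 bases. That of chromosome 14 (18.4%) was 19.2%, 24.3% and 20.997% in these settings and 19.6% with no minimum length. That of chromosome 15 (8.13%) was 10.7% without the highest gene and 9.69% over 1000 bases, and that of chromosome 22 (15.7%) was 20.8% and 19.7%. That of chromosome 21 (46.1%) was 43.7% with STAR pairs, 28.8% without the highest gene and 35.2% over 1000 bases.

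Chosen after seeing the data, the removal of the repeats gave a short-arm share of reads of 1.48%, a detected share of 6.68%, a ratio per kilobase of 0.654, a same-strand share of 13.6% and 94.0% on the 10 highest genes. The arms of chromosomes 13, 14, 15, 21 and 22 then held 4.31%, 9.03%, 2.86%, 79.8% and 3.96% of the reads. Of the 2903 reads left in this setting, 2212 lay on LOFF_G0001713 of chromosome 21. Without the chromosome 15 gene whose strand columns exceeded its unstranded count, also removed after seeing the data, the same-strand share of short-arm pairs was 6.43%. Over bases in exactly 1 gene, a length also added after seeing the data, the ratio per kilobase was 0.615 over the 5 arms. It was 0.370 on chromosome 13, 0.965 on 14, 0.349 on 15 and 0.372 on 21, and on chromosome 22 it turned to 1.08. These single-arm ratios are in reads and were not computed in STAR pairs. Among genes with bases in exactly 1 gene the detected share on the short arms was 7.41%. With no replicate, the values describe these reads alone, and unique alignment limits every value in repeated sequence.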
